A study of Drosophila melanogaster with 4 samples.

Results

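Flanking ASH1 peaks are ASH1-bound regions of S2-DRSC chromatin that shared no base with an FSH peak but lay next to one. They were chosen by the peak positions of both proteins: an ASH1 peak had to share 0 bp with every FSH peak, and the edge of the nearest FSH peak on the same chromosome had to be at most 1000 bp away. On the chromosome arms X, 2L, 2R, 3L and 3R and on chromosome 4, 516 of 10405 ASH1 peaks met this rule, which is 4.96% of them (Wilson 95% interval 4.56% to 5.39%). ASH1 peaks that shared no base with an FSH peak numbered 1883 in all, or 18.1% of the ASH1 peaks. The flanking peaks thus made up 27.4% of the ASH1 peaks without FSH, the other 1367 being more than 1000 bp away from FSH (remote ASH1 peaks). The remaining 8522 ASH1 peaks overlapped an FSH peak (shared ASH1 peaks). Since positions chose the peaks, the counts and distances below describe them and carry no test. The authors state that their peak caller tends to divide wide signals into clusters of close peaks. A count of peaks is therefore not a count of separate bound regions.

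S2-DRSC cells are a cultured line of Drosophila embryonic origin, and no treatment is given in the sample labels. ASH1-bound chromatin was precipitated with the antibodies ASH1N and ASH1C, and FSH-bound chromatin with 2 antibody preparations, of which 1 is labelled FSH-S and 1 is labelled FSH-S and FSH-L, so that 4 ChIP-seq libraries were sequenced from cross-linked chromatin. The sources used here disagree on which isoform the first FSH preparation detects, as the protocol and the methods name FSH-L. Alignments were pooled by protein before peaks were called, and 1 peak list per protein was available here, so that neither a difference between antibodies nor a spread between replicates could be calculated. All chromatin came from 1 batch of 1 cell line.

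ASH1 is a Trithorax group protein with a SET domain that methylates histone H3, and it is known from genetics as an activator that maintains the expression of homeotic genes. FSH, encoded by fs(1)h, is the BET (bromodomain and extraterminal) protein of Drosophila. BET proteins bind acetylated histone tails through a pair of bromodomains and are typically found at active promoters and enhancers.

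The score of a peak is the value that the peak caller assigned to its enrichment over input. It was taken for the negative log10 of the P value multiplied by 10, as the lowest score in either list was 50.02 and the cut-off of 1e-05 corresponds to 50. Scores of 3100 were shared by many peaks, which have no order among themselves. Strong and weak refer below to this score, which is not a fold enrichment. The lists hold no read counts, and a region without an FSH peak may still hold FSH signal that did not pass the cut-off. Positions refer to BDGP Release 5 and are counted from 1. An annotation of this build was not used here, so that it is not stated whether a peak lies in a gene, an exon or an intron.

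The gap between the facing edges had a median of 366 bp in flanking ASH1 peaks, with quartiles of 161 and 643 bp. The smallest gap was 1 bp, between an ASH1 peak on chromosome 3R from 16977966 to 16978470 (score 59.3) and the FSH peak that began at 16978472 (score 876). In 74 flanking peaks the gap was at most 100 bp. The number of ASH1 peaks without FSH decreased with distance from 76.8 per 100 bp in the first 250 bp to 48.0, 44.0 and 37.6 in the following steps of 250 bp. It was 34.0 in the step from 1000 to 1250 bp and 29.6 in the step from 1250 to 1500 bp. Thus, no break in the number of peaks was seen at the limit of 1000 bp.

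**Figure D1:**
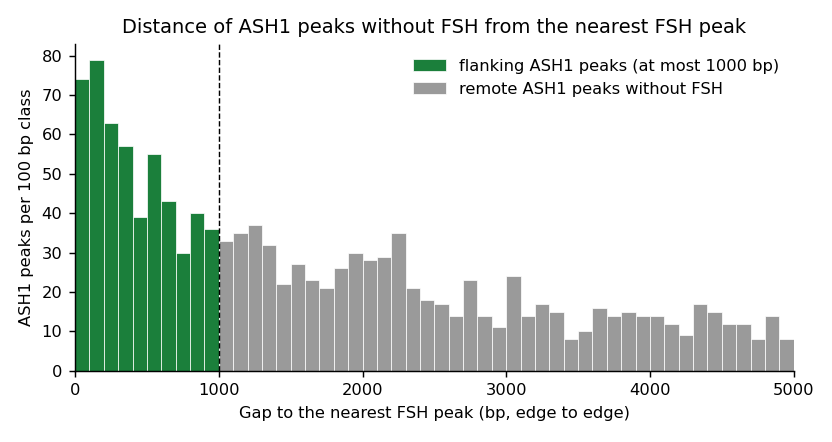
Number of ASH1 peaks without FSH (y axis, peaks per class of 100 bp) against the gap to the nearest FSH peak (x axis, bp between facing edges), shown up to 5000 bp. The 516 flanking ASH1 peaks are green and remote ASH1 peaks are grey, the dashed line marks 1000 bp, and the classes on either side of the line hold 36 and 33 peaks.

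At the limit itself, an ASH1 peak on chromosome 3R from 11659818 to 11661157 (score 326) and one on the X chromosome from 13498432 to 13498920 (score 54.9) both had a gap of 1000 bp. The nearest ASH1 peaks beyond it were on chromosome 3R from 1983829 to 1984313 (score 83.4), with a gap of 1003 bp, and on chromosome 2L from 15007650 to 15008216 (score 57.6), with a gap of 1006 bp. The FSH peaks next to these 4 regions had scores of 205, 779, 3100 and 372 in the same order. Scores below 100 were thus present on both sides of the limit, and the single higher score lay inside it.

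Flanking ASH1 peaks were weak for the most part. Their median score was 134 (quartiles 78.7 and 281), compared to 159 (85.5 and 355) in remote ASH1 peaks and 1171 (418 and 2911) in shared ASH1 peaks. Scores below 100 were found in 190 flanking peaks, or 36.8% (Wilson 95% interval 32.8% to 41.1%), against 31.3% of the remote peaks (28.9% to 33.8%), 5.76% of the shared peaks and 10.7% of all ASH1 peaks. At the other end, 31 flanking peaks (6.01%) scored 1000 or more, against 8.34% of the remote peaks and 46.2% of all ASH1 peaks. A score of 3100 was reached by 4 flanking peaks (0.775%), and 0.732% of the remote peaks scored 3100 or more. The intervals cover counting error only and take each peak as independent of the others. Since the rule was applied to the same peak lists, these differences were not tested.

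**Figure D2:**
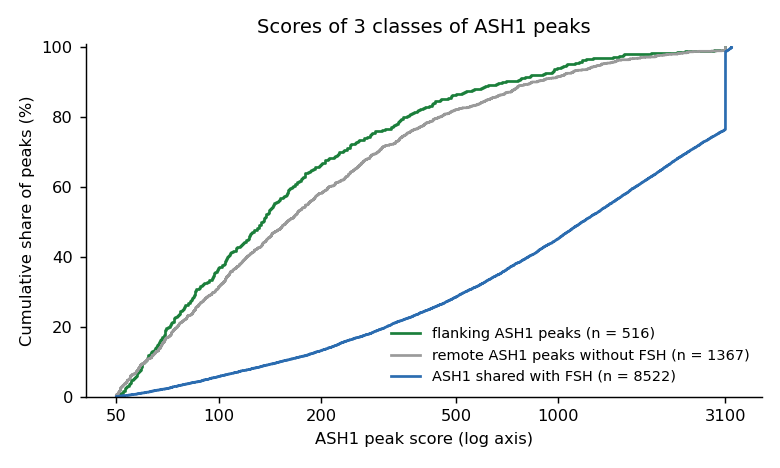
Cumulative share of peaks (y axis, %) against the ASH1 peak score (x axis, log scale) in 516 flanking, 1367 remote and 8522 shared ASH1 peaks. The curves of both classes without FSH lie close together, with medians of 134 and 159, and the curve of shared peaks lies far to the right of them and has a step at 3100.

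The lengths showed the same order for shared peaks, but not between the classes without FSH. The median flanking ASH1 peak measured 606 bp (quartiles 526 and 837 bp), the median remote peak 586 bp (514 and 780 bp) and the median shared peak 954 bp (666 and 1452 bp). More than 1000 bp were covered by 78 flanking peaks (15.1%). The share of all ASH1 peaks above 1000 bp was not calculated, but their upper quartile was 1321 bp, so that it was higher. Across the 516 flanking peaks, Spearman's rho was 0.29 between score and length and 0.09 between score and gap. These are descriptions across regions of the same libraries.

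When all ASH1 peaks without FSH were arranged by distance, the score did not simply follow it. In flanking peaks the median score was 123, 141, 147 and 128 in the 4 steps of 250 bp up to the limit. Remote peaks with a gap of 1000 to 1250 bp had a median of 188, those with 1250 to 1500 bp one of 214 and those with 1500 to 2000 bp one of 234. Farther away the median was lower again, with 162 from 2000 to 5000 bp and 142 beyond 5000 bp. Scores below 100 made up 41.2% of the peaks in the first 250 bp, 22.4% from 1000 to 1250 bp and 33.8% beyond 5000 bp. The quartiles of all these classes overlapped.

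**Figure D3:**
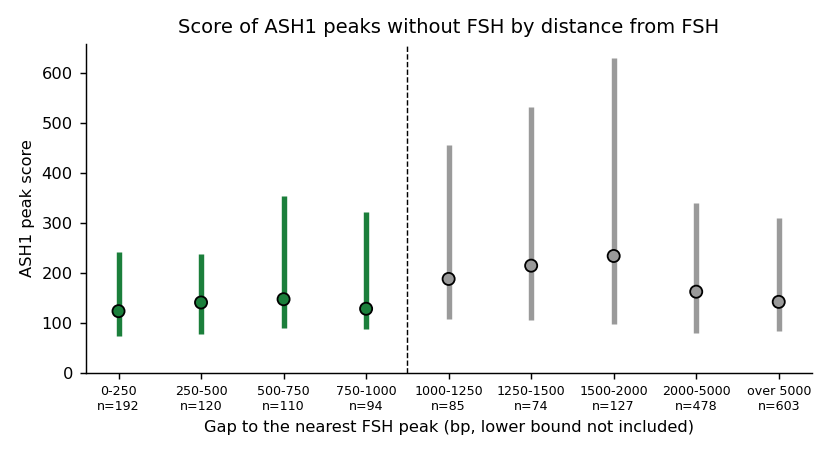
ASH1 peak score (y axis) of ASH1 peaks without FSH in 9 classes of the gap to the nearest FSH peak (x axis, bp). Points are medians and lines span the quartiles over the peaks of a class, flanking peaks are green and remote peaks grey. Medians of the flanking classes lie between 123 and 147, and the highest median of 234 belongs to gaps of 1500 to 2000 bp.

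The FSH peaks beside them were of ordinary strength. The nearest FSH peak (FSH neighbour) had a median score of 628 (quartiles 205 and 2163), whereas all 8438 FSH peaks on the same chromosomes had a median of 715 (228 and 2176). Its median length was 1056 bp, compared to 1019 bp for all FSH peaks. An FSH neighbour at 3100 or above was found in 95 of 516 cases, or 18.4%, which is near the 18.7% of all FSH peaks with such a score and the 16.9% found beside remote ASH1 peaks. The score of the flanking ASH1 peak and that of its FSH neighbour were unrelated, with a rho of -0.06 across 516 pairs. In total, 504 different FSH peaks served as neighbours, 12 of them for 2 flanking peaks each. FSH lay at lower coordinates in 256 cases, at higher coordinates in 259 and at equal distance on both sides in 1.

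Most flanking ASH1 peaks were accompanied by a further ASH1 peak. In 492 of 516 cases (95.3%) the FSH neighbour was itself overlapped by another ASH1 peak. This is close to the 93.2% of all FSH peaks that overlapped an ASH1 peak and to the 93.2% found for the FSH peaks nearest to remote ASH1 peaks, so that it does not set the flanking peaks apart. Another ASH1 peak lay within 1 kb of 483 flanking peaks (93.6%), against 12.3% of remote peaks, 45.4% of shared peaks and 43.5% of all ASH1 peaks. This share follows largely from the rule, which places an FSH peak within 1000 bp, and most FSH peaks carried ASH1. The median gap to the nearest ASH1 peak was 353 bp for flanking peaks and 3068 bp for remote peaks. A gap of at most 200 bp to another ASH1 peak was found in 166 of the 516 flanking peaks. The lower quartile of this gap was 148 bp in flanking, 235 bp in shared and 1632 bp in remote peaks.

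For the 492 flanking peaks whose FSH neighbour carried ASH1, the ASH1 peak that shared most bases with this neighbour was taken as the partner. No other ASH1 peak lay between both in 465 cases. The partner was stronger in 433 pairs and weaker in 59. Its median score was 1313 (quartiles 487 and 2880), against 136 (78.4 and 284) for the flanking peaks of these pairs. In single pairs the score of the partner exceeded that of the flanking peak 7.16 times in the median, and at least 10 times in 204 pairs. With the score taken for a log P value, these are ratios of log P values and not of ASH1 enrichment. They are also limited by the score, as 109 of the 492 partners had exactly 3100, where peaks have no order. The partner was also longer in 392 pairs, with a median length of 1023 bp against 613 bp. The scores of both were unrelated (rho 0.03 across 492 pairs). Every partner is a shared ASH1 peak by definition. Shared peaks as a whole had a median score of 1171 and a median length of 954 bp, near the values of the partners. The contrast within pairs thus resembles that between shared peaks and peaks without FSH. It was not calculated for remote peaks.

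**Figure D4:**
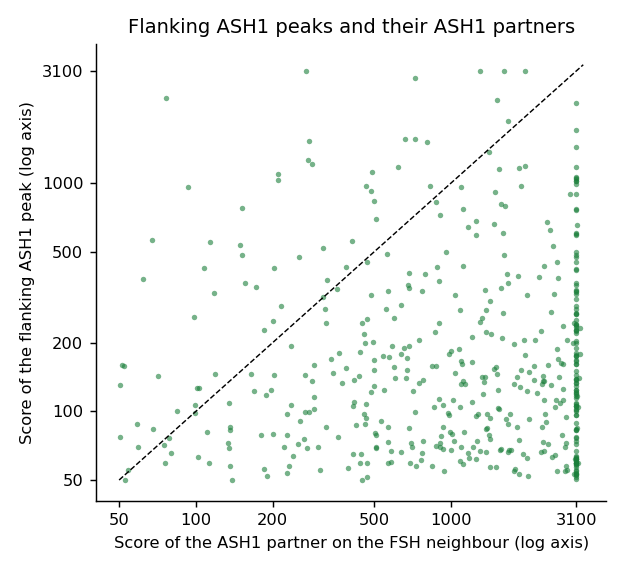
Score of the flanking ASH1 peak (y axis, log scale) against the score of its ASH1 partner on the FSH neighbour (x axis, log scale) in 492 pairs. Each point is a pair and the dashed line marks equal scores, with 433 pairs below the line and 59 above it, and many partners in a column at 3100.

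The edge nearer to the flanking peak belonged to the FSH neighbour or to the partner about equally often. In 253 pairs the FSH neighbour reached closer to the flanking peak than the ASH1 partner did, in 237 the partner reached closer, and in 2 both edges were equally near. The median difference was 4 bp, with quartiles of -47.3 and 65.5 bp and a range from -909 to 2950 bp, where positive values mean that FSH was closer. Both gaps were thus of similar size in the middle of the distribution, but differed widely in single pairs. The partner was chosen by shared bases and was not always the nearest ASH1 peak, which makes some differences large. In the pair with the largest difference, on 2L from 8089364 to 8091111, the gaps were 158 bp to FSH and 3108 bp to the partner. The nearest other ASH1 peak was 271 bp from that flanking peak. The smallest gap to a partner was found on 2L, where the flanking peak between 8237406 and 8238904 (score 108) ended 4 bp before an FSH peak with a score of 2937 and 5 bp before its ASH1 partner with a score of 3100.

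A different picture was seen for strong flanking peaks. Among the 31 with a score of at least 1000, all of which had a partner, 18 exceeded the score of the partner and 16 exceeded every ASH1 peak on the FSH neighbour. Among the 178 with a partner and a score below 100, only 6 exceeded the partner. As the same score enters both sides of this comparison, the choice of classes already favours this difference. The FSH neighbours of the 31 strong peaks had a median score of 433 (quartiles 195 and 1647). Those of the 190 peaks below 100 had a median of 669 (222.5 and 2250). These quartiles overlapped widely, and rho between both scores was -0.06 across all 516 flanking peaks. FSH neighbours also scored lower where the flanking peak was stronger than its partner (median 194 in 59 pairs) than where it was weaker (median 760 in 433 pairs). This split selects weak partners, with a median score of 202 in the 59 pairs, on the same FSH sites. These differences were not tested.

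The 5 strongest flanking peaks show different arrangements. On chromosome 2R, an ASH1 peak from 7505564 to 7507200 had a score of 3100 and lay 870 bp from an FSH peak of 3472 bp (7501222 to 7504693, score 3100), whose partner had a score of 1950. On the X chromosome, an ASH1 peak from 8301065 to 8302172 (score 3100) lay 539 bp from an FSH peak of 4730 bp (8302712 to 8307441, score 3100) that was overlapped by 4 ASH1 peaks. The nearest of these 4 peaks, from 8302718 to 8303612, had a score of 3100 as well, while the partner that shared most bases had a score of 1614. Thus, both of these flanking peaks bordered long and strong FSH regions.

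In the other 3 cases the FSH neighbour was weaker. A second ASH1 peak on chromosome 2R, from 19244560 to 19245271, had a score of 3100, and its FSH neighbour at a gap of 249 bp had a score of 1297. The partner on this neighbour scored 270 only, although it was longer than the flanking peak (1650 bp against 712 bp). On 3L, the flanking peak between 21834195 and 21834781 (score 3100) began 36 bp beyond its partner (score 1294). The FSH neighbour, with a score of 851, ended 610 bp before the flanking peak, so that the partner filled most of the gap. The fifth region, also on 3L, extended from 13859768 to 13860221 with a score of 2877 in only 454 bp, and lay 421 bp from an FSH peak with a score of 380.

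**Figure D5:**
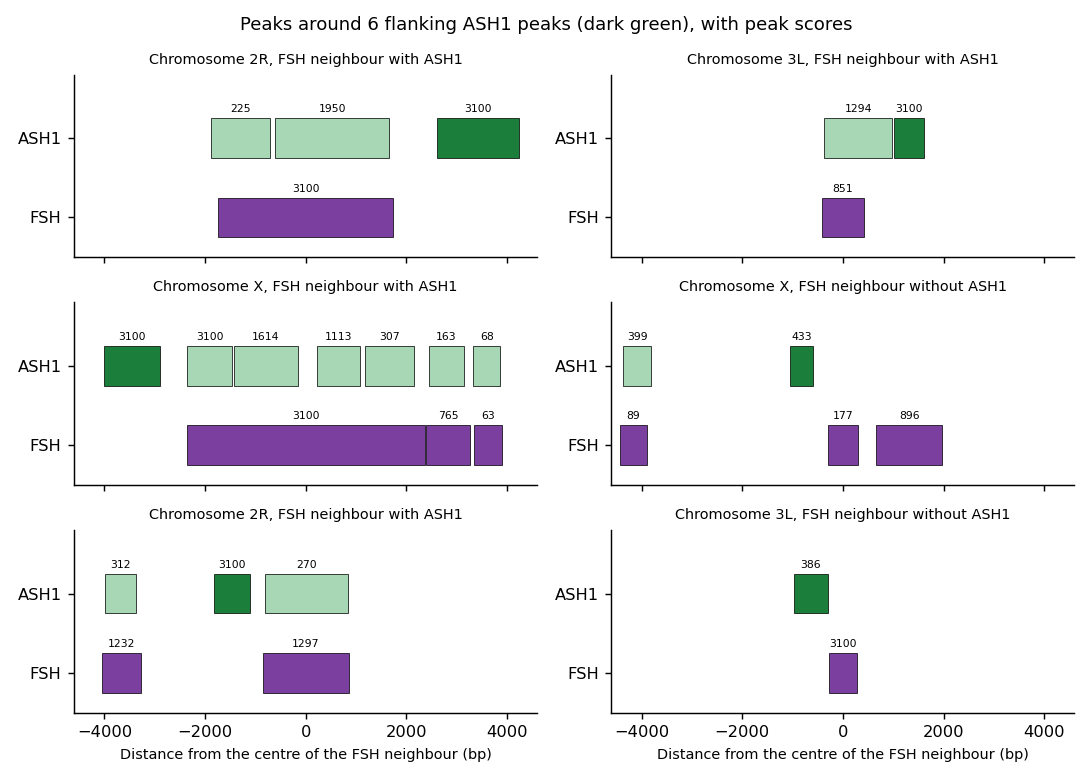
Peaks of ASH1 (upper row of each panel) and FSH (lower row) around 6 flanking ASH1 peaks, drawn to scale against the distance from the centre of the FSH neighbour (x axis, bp), with the peak score above each box. Dark green marks the flanking peak, light green other ASH1 peaks and violet FSH peaks. In the 4 panels with flanking scores of 3100 the FSH neighbour carried ASH1, and in the 2 panels with flanking scores of 433 and 386 it carried none.

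The strongest flanking peaks of the remaining chromosomes had lower scores. On 2L, the ASH1 peak from 10743634 to 10744568 scored 2359 and lay 479 bp from an FSH peak with a score of 377, whose partner scored 76.4. On 3R, the ASH1 peak from 27077772 to 27078958 scored 1511, with a gap of 925 bp to an FSH peak with a score of 168. On chromosome 4 the highest score was 145, from 647602 to 648146, at 183 bp from an FSH peak at 3100.

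In 24 flanking ASH1 peaks the FSH neighbour carried no ASH1 peak at all, so that these peaks of both proteins lay side by side without overlap. Both peaks were usually weak. These 24 ASH1 peaks had a median score of 100.2 (quartiles 83.1 and 171), and 20 of them scored below 200. Their FSH neighbours had a median score of 135 (83.3 and 259), and 16 scored below 200. For comparison, the median score was 159 in all FSH peaks without ASH1 and 789 in FSH peaks with ASH1. The gap was 414 bp in the median and ranged from 32 to 956 bp. The nearest other ASH1 peak was 2120 bp away in the median, and in 5 cases within 1 kb.

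The pair with the smallest gap was also the one with the strongest FSH peak. On 3L, an ASH1 peak of 656 bp between 8448068 and 8448723 (score 386) and an FSH peak from 8448756 to 8449305 (score 3100) were separated by 32 bp, with no further ASH1 peak within 3932 bp. The highest ASH1 score among these pairs was 433, on the X chromosome from 173359 to 173818, at 304 bp from an FSH peak with a score of 177. Another ASH1 peak on the X chromosome, from 17000281 to 17000804 (score 345), lay 379 bp from an FSH peak with a score of 128. It had a further FSH peak (17001299 to 17001952, score 731) within 1 kb on its other side, which was overlapped by an ASH1 peak at 3100, 442 bp from the flanking peak. The ASH1 peaks from 3918166 to 3918823 on 2R (score 286) and from 16888265 to 16888930 on 3L (score 186) completed the 5 highest, next to FSH peaks with scores of 86.4 and 194.

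FSH was present on both sides of 41 flanking ASH1 peaks, with each FSH edge at most 1000 bp away. In 39 of these both FSH peaks carried ASH1, and in 2 only 1 did. These 41 ASH1 peaks had a median score of 97.2 (quartiles 68.1 and 161) and a highest score of 1187, and the FSH peaks around them were 1587 bp apart in the median. Of the other 475 flanking peaks, 452 had a single FSH neighbour with ASH1 and 23 a single FSH neighbour without ASH1.

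The reverse arrangement, an FSH peak with a flanking ASH1 peak on either side, occurred 11 times, and each of the 11 FSH peaks was overlapped by 1 further ASH1 peak. The strongest of these FSH peaks was located on chromosome 2R from 20888865 to 20891550, with a score of 3100. Its flanking ASH1 peaks had scores of 89.9 and 93.6, at gaps of 213 and 385 bp to it, and the second of them was nearer, at 163 bp, to the next FSH peak. On chromosome 2L, the FSH peak from 17765 to 19214 (score 2610) was flanked by ASH1 peaks with scores of 114 and 83.9. On chromosome 2R, the FSH peak from 4039017 to 4040169 (score 1594) was flanked by ASH1 peaks with scores of 322 and 122, at 134 and 73 bp.

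Flanking ASH1 peaks could be long without being strong. The longest, on chromosome 2R from 11821060 to 11826279, covered 5220 bp with a score of 1059. It followed an FSH peak of 5987 bp (score 2364) and an ASH1 partner of 4869 bp (score 3100), and a remote ASH1 peak of 1398 bp (score 1040) came next, from 11826445 to 11827842. The second longest lay in the same part of 2R, from 11805176 to 11807801, and had a score of 63.0 only over 2626 bp. Its partner of 2231 bp had a score of 3100, whereas the FSH neighbour of 2631 bp scored 137. The third, with 2290 bp and a score of 290, extended from 7512948 to 7515237, again on 2R. All 3 longest flanking peaks were thus on 2R, where 29 of 102 flanking peaks (28.4%) exceeded 1000 bp, compared to 15.1% of all flanking peaks. On the other arms it was 4 of 106 on X, 18 of 99 on 2L, 9 of 98 on 3L and 18 of 104 on 3R. The matching shares of remote and shared ASH1 peaks were not calculated by arm, so that 2R is not set apart for flanking peaks.

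ASH1 and FSH peaks were then chained into runs wherever the gap between them did not exceed 1 kb. The 516 flanking peaks fell into 496 of 7796 runs. These runs had a median length of 3004 bp, compared to 1343 bp for the 5702 runs that held both proteins and no flanking peak. The rule itself makes them longer, since each must hold an ASH1 peak, a gap and an FSH peak side by side. Runs with flanking peaks typically consisted of 2 ASH1 peaks and 1 FSH peak (267 of 496), and only 20 runs held 2 flanking peaks. The flanking peak formed an outer end of its run in 442 cases (85.7%) and lay inside it in 74. This share is a description, as runs of so few peaks leave little room inside.

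No run held more than 2 flanking peaks, and of the 20 with 2 flanking peaks the 3 described here were taken by their number of ASH1 peaks and then by their length. The third was tied at 5 ASH1 peaks with a shorter run on 3R, from 3315353 to 3319661. The first extended from 6156918 to 6167137 on 2R with 6 ASH1 and 4 FSH peaks, of which the flanking peaks had scores of 141 and 123 and the 4 shared ASH1 peaks scores between 388 and 1324. The second, on 3L from 16860881 to 16869115, contained 2 flanking peaks with scores of 69.3 and 52.3, on either side of a remote ASH1 peak with a score of 121. The third, on 2R from 20886376 to 20894693, held the FSH peak of 2686 bp described above. In all 3 runs the flanking peaks scored lower than every shared ASH1 peak, the lowest of which scored 388 in the first run, 135 in the second and 492 in the third.

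The chromosome arms contributed similar shares of their ASH1 peaks. Flanking peaks made up 5.61% of the ASH1 peaks on X (106 of 1889), 5.12% on 2L (99 of 1934), 5.05% on 2R (102 of 2018), 4.71% on 3L (98 of 2079) and 4.39% on 3R (104 of 2369). The Wilson intervals of the highest and the lowest of these shares overlapped (4.66% to 6.74% on X, 3.64% to 5.29% on 3R). Such an overlap does not show that the shares are equal, and the intervals take peaks as independent. Among ASH1 peaks without FSH the order of the arms differed. Flanking peaks made up 31.3% of these on 2R, the highest share of the arms, 25.6% on X and 24.3% on 3R, the lowest. On chromosome 4 this share was 50% (26.8% to 73.2%). Chromosome 4 had 7 flanking peaks among 116 ASH1 peaks, or 6.03% (2.95% to 11.9%), with scores from 53.0 to 145. Of these 7, 6 lay next to an FSH peak at 3100, a score that was reached by 36.8% of the FSH peaks on this chromosome and by 18.4% of the FSH neighbours in all.

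The median length of flanking peaks varied more than their share. It was 528 bp on X and 554 bp on 3L, against 732 bp on 2L, 759 bp on 2R and 663 bp on 3R. The remote peaks had median lengths of 518 bp on X, 588 bp on 3L, 655 bp on 2L, 613 bp on 2R and 633 bp on 3R. Shared ASH1 peaks were also shortest on X, with a median of 751 bp, and measured 943 to 1044 bp on the autosomal arms. Short peaks on X were accordingly seen in all 3 classes of ASH1 peaks on these 5 arms, while the contrast between 3L and the other autosomal arms was largest in flanking peaks. Median scores of flanking peaks ranged from 112 on 3L to 151 on 3R among the arms. These differences were not tested.

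The regions that the study displays as genome browser views held 32 ASH1 peaks and no flanking peak. With flanking peaks at 4.96% of all ASH1 peaks, few or none would be found among 32, and nothing is read from this count. In the bithorax complex, the homeotic gene cluster of Ubx, abd-A and Abd-B, all 16 ASH1 peaks in the range used here were shared with FSH. The same applied to 3 peaks around CG1105 and Aly, 2 peaks each at Cyp12c1 and Spf45 and 1 peak at H15. At Dad, an inhibitor of Dpp signalling, 6 of 8 ASH1 peaks were shared and 2 were remote. The first of these, from 12884558 to 12885269 on 3R (score 95.3), had a gap of 1114 bp and thus lay just beyond the limit, and the second, from 12885349 to 12886030 (score 55.0), had a gap of 1767 bp. The ends of these regions were read by eye from the displayed axes and are approximate.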

How the data were processed

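ChIP-seq of ASH1 and FSH was represented by 4 libraries of S2-DRSC cells, 2 per protein. Per the labels and the methods, the authors aligned reads to BDGP Release 5 with Bowtie 0.12.7, merged the alignments of each protein with SAMtools 0.1.9 and called peaks over input with MACS 1.4.0, P value cut-off 1e-05. By the settings in the methods, reads that matched several places were reported at 1 of them, up to a limit of matches. Reads above that limit were dropped, and both leave peaks in repeats uncertain. The deposited score is the authors' value per peak, unnamed in the files. The deposited lists give other values only as positions. Depth behind single peaks is unknown, and leaving out a library was not possible as libraries were pooled.

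Sequences of the mitochondrial genome, U, Uextra and those ending in Het were left out (343 ASH1 and 386 FSH peaks). Gaps were counted as bases between facing edges. Regions were named by rule: the 5 highest scores, the highest per chromosome, the 3 longest, the 5 highest without ASH1 on the FSH neighbour, the 3 strongest FSH peaks flanked on both sides, 3 runs with most flanking peaks (ties taken by number of ASH1 peaks, then length), those at the limit, and those in displayed views. The closest pairs and peaks around named regions were added after values were seen. The rule for flanking peaks and these choices were made with earlier results of these data known. No tests were computed, since peaks are not replicates. The 7 names Ubx, abd-A, Abd-B, Dad, Cyp12c1, Spf45 and H15 were looked up in RefSeq (Release 6 plus ISO1 MT, names only), and 7 matched.

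Calculations were done in Python 3.11.15 with pandas 2.3.3, numpy 2.4.6, scipy 1.17.1 and matplotlib 3.10.9. BEDTools 2.31.1 gave equal numbers in 3 of 3 checks, and all 2000 planted peaks of a test on simulated data were assigned correctly. For 11 results, 8 alternatives were calculated.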

Additional observations from a re-analysis of the deposited data

Results flagged for a closer look

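On heterochromatic and unplaced sequences, which were left out above, 4 of 50 ASH1 peaks without FSH had an FSH edge within 1000 bp. Their scores ranged from 64.2 to 3100, with a median of 138. They are listed because they belong to data that the comparisons did not use.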

How the results depend on the processing

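When 11 results were recalculated under 8 alternatives, 59 values stayed within their limits (1.5 times a count, the 95% interval of a share or median) and 28 did not. With a limit of 500 bp, 312 ASH1 peaks were flanking, or 16.6% of those without FSH, their median gap was 203 bp, 96.8% had another ASH1 peak within 1 kb, 13 lay between FSH peaks and 4 FSH peaks were flanked on both sides. With a limit of 2000 bp these values were 802 peaks, 42.6%, 677 bp, 68.0%, 139 and 27, the median score was 152 and 32.5% scored below 100. With a minimum score of 100 in both lists, flanking peaks made up 23.9% of those without FSH, their median score was 250, their median length 688 bp, 89.4% had ASH1 within 1 kb, 4 FSH peaks were flanked on both sides and the median FSH score was 761. The share below 100 has no value in this setting, which leaves out all such peaks. With this minimum in the FSH list alone, the median score was 145, the median FSH score 839 and 20 FSH peaks were flanked on both sides. With ASH1 peaks merged over gaps of at most 200 bp, 356 peaks were flanking instead of 516, a lower count that stayed within its limit. Their share of those without FSH was 21.1%, the median gap 539 bp, and 90.7% had ASH1 within 1 kb. Between FSH peaks lay 23 of the flanking peaks, and 3 FSH peaks were flanked on both sides. No value left its limits when overlaps under 10% of the ASH1 peak counted as none, when heterochromatic and unplaced sequences were included or when chromosome 4 was left out. No library could be left out, as the libraries of each protein had been pooled.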
